A study of Homo sapiens with 9 samples.

Results

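The urokinase plasminogen system, its serpins and the genes that start or restrain coagulation were followed in MDA-MB-231, a long-established human cell line of triple-negative breast cancer. The members were chosen by name, as PLAU, PLAT, PLAUR, SERPINE2, SERPINB2, SERPINB8, F3, TFPI and THBD, and all 9 were found among the 26485 genes measured. The cells stably expressed 1 of 3 short hairpin RNAs (shRNAs): a nonspecific one (NS shRNA), ASAH1 shRNA #1 or ASAH1 shRNA #2, the last 2 being independent hairpins against ASAH1, which encodes acid ceramidase. Each hairpin gave 3 RNA sequencing libraries, which the study calls biological replicates, from cells grown in DMEM with serum and with no further treatment named. All controls carry the same single hairpin, and whether the 3 libraries of a group came from separate cultures is not stated, so p-values measure the spread between these libraries. The question was which transcripts change when ASAH1 is knocked down, and each ASAH1 shRNA was compared with the same 3 NS shRNA libraries.

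Urokinase, encoded by PLAU, and tissue plasminogen activator, encoded by PLAT, are serine proteases that cut plasminogen to plasmin, which digests fibrin and matrix proteins. The urokinase receptor, encoded by PLAUR, holds urokinase at the cell surface, and serpins block such proteases by trapping them in a covalent complex. Tissue factor, encoded by F3, starts the coagulation cascade, while TFPI and thrombomodulin, encoded by THBD, restrain it. This system is widely studied in breast cancer for its part in invasion.

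The libraries held between 23806003 and 49659106 reads on genes. ASAH1, read as the check of the hairpins, stood at 135 ± 1.47 CPM (SD, n = 3) with NS shRNA, 40 ± 1.78 with shRNA #1 and 21.8 ± 0.623 with shRNA #2. CPM are reads divided by the library total, in the usual unit of counts per 1000000 reads, after TMM scaling (edgeR's trimmed mean of M values), which puts all 9 libraries on 1 scale. The summed CPM of VIM, CD44, EGFR and KRT18, genes of this line, lay between 2644 and 3347 in all libraries, with the ranges of the 3 groups apart, from 3291 to 3347 with NS shRNA, from 2933 to 2967 with shRNA #1 and from 2644 to 2751 with shRNA #2. ESR1 and PGR did not exceed 0.0802 CPM in any library, and ERBB2 lay between 59.3 and 102 CPM. Markers of hepatocytes, which make much plasminogen and many serpins, summed to at most 0.252 CPM, with 1 of the 3 genes, TTR, at 0 in all libraries. Fibroblast markers summed to between 18.1 and 29.1 CPM, led by COL1A1. Leukocyte markers summed to between 56 and 103 CPM, led by CD68, and the other 3 of them to between 26.1 and 32.3 with NS shRNA, between 6.25 and 7.21 with shRNA #1 and between 28.6 and 33.4 with shRNA #2. The part of these markers in the results below was not tested. In bulk RNA, fewer cells with a transcript and less of it per cell cannot be told apart.

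Levels of different genes were compared as CPM per kilobase of merged exons, a length-scaled level. In NS shRNA libraries, F3 at 217 and PLAU at 209 were the most abundant members, and their libraries overlapped. PLAT followed at 88.9, THBD at 39.3, PLAUR at 20.2 and TFPI at 13.4. SERPINB8 at 3.14 and SERPINE2 at 2.28 were far lower, and SERPINB2 was nearly absent at 0.00336. Apart from F3 and PLAU, no pair of neighbours in this order overlapped in its 3 libraries. The order changed with the hairpin: PLAU led with shRNA #1 at 528 against 252 for F3, while F3 at 350 and PLAT at 236 led with shRNA #2, where PLAU stood at 64.7. SERPINE2 at 4.82 also passed SERPINB8 at 3.08 with shRNA #2, and the libraries of no neighbouring pair overlapped with either ASAH1 shRNA. These orders depend on the exon lengths used. In mean CPM with NS shRNA, PLAT at 691 stood above F3 at 626 and PLAU at 617. On that scale SERPINE2 at 20.5 was already above SERPINB8 at 18.1 with NS shRNA.

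**Figure D1:**
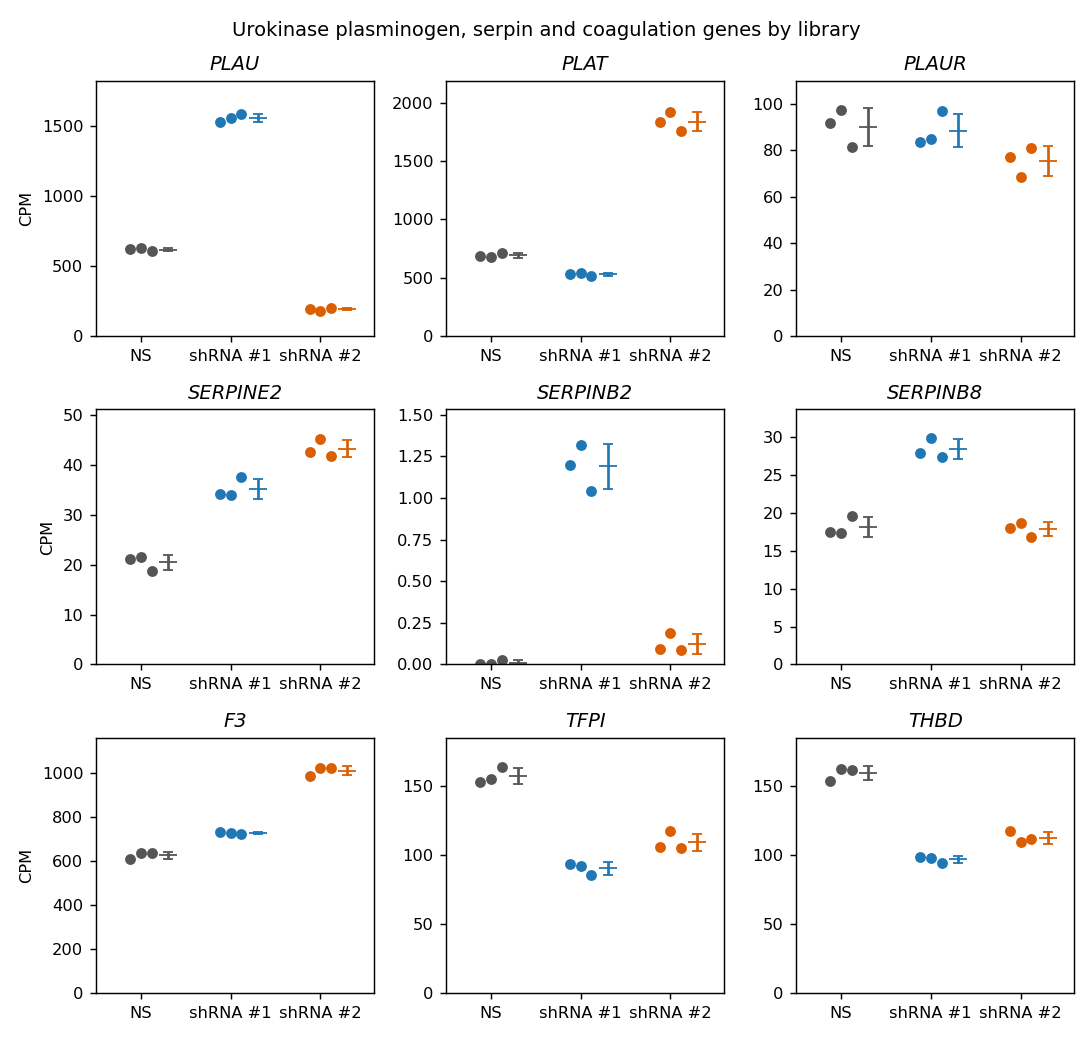
CPM (y axis, from 0) of the 9 genes in each of the 9 libraries, as points, with the mean and SD of 3 libraries per group beside them (NS shRNA grey, ASAH1 shRNA #1 blue, ASAH1 shRNA #2 orange). PLAU was highest with shRNA #1 and lowest with shRNA #2, and PLAT had the opposite order.

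With shRNA #1, 5 of the 9 members were higher than with NS shRNA and 3 were lower at an adjusted p below 0.05 from limma, beside 32.8% of all 14341 genes tested called higher and 33.3% called lower. One of the 5, SERPINB2, reached the minimum mean of 10 only through the shRNA #1 libraries, in which it was high, so it had to differ, and 4 members were higher at a minimum mean of 50. The median log2 fold change was 0.21 over the members and 0.001 over all genes tested. With shRNA #2, 3 of the 8 members tested were higher and 4 were lower, beside 33.5% of 14250 genes called higher and 33.4% called lower. The medians were -0.14 over the members and 0.013 over all genes tested. When the values were instead scaled to each library's total, the median of all genes in that comparison was -0.121 and 3638 genes were higher against 5914 lower, where 4780 and 4758 had been called, while every called member kept its direction. SERPINE2, F3, TFPI and THBD were called in the same direction with both hairpins, PLAU and PLAT in opposite directions, and PLAUR, SERPINB2 and SERPINB8 were each called with 1 hairpin. How many of all genes tested fell in each of these patterns was not counted. The split is therefore not read as particular to the members. Both comparisons share the NS shRNA libraries, so they are not independent of each other.

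**Figure D2:**
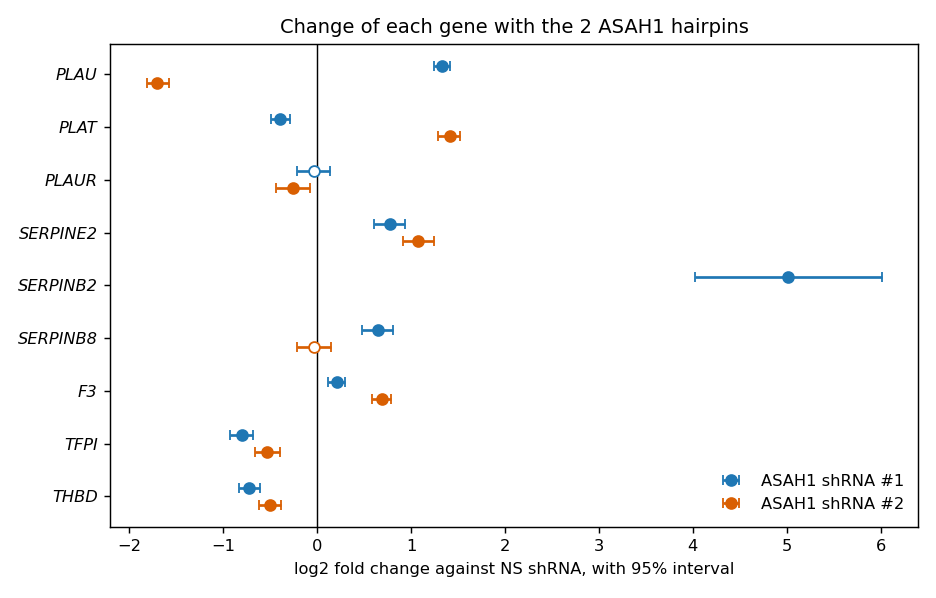
Log2 fold change of each gene against NS shRNA (x axis) with its 95% interval from limma, for ASAH1 shRNA #1 in blue and ASAH1 shRNA #2 in orange; open points had an adjusted p above 0.05. PLAU and PLAT lie on opposite sides of 0 with the 2 hairpins, and SERPINB2 was not tested with shRNA #2.

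Upstream sequences from RefSeq (GRCh38.p14) were at hand for 7 of the 9 members, all but PLAT and THBD, and windows from 250 bases before to 50 bases after the start were searched on both strands for 5 short motifs. These were the AP-1 site TGANTCA, the GC box GGGCGG, the TATA box TATAAA, the cyclic AMP response element TGACGTCA and the E-box CACGTG. Of 35116 promoter windows of this length, 7.71% held the AP-1 site, 45% the GC box, 11.5% the TATA box, 1.85% the cyclic AMP response element and 7.26% the E-box. The 250 bases upstream are printed for PLAU, SERPINB2, SERPINB8 and F3. The first 3 are the members called higher with shRNA #1 and lower with shRNA #2 than with shRNA #1. F3 was higher with both hairpins, as was SERPINE2, whose windows are not printed. PLAU and SERPINE2 have 2 windows each, and for PLAU that of the canonical transcript is shown. They lie at chr10:73910882-73911131 (plus strand), chr18:63887455-63887704 (plus strand), chr18:63969831-63970080 (plus strand) and chr1:94541760-94542009 (minus strand), each read 5′ to 3′ up to the last base before the start, with motif matches in capitals.
PLAU: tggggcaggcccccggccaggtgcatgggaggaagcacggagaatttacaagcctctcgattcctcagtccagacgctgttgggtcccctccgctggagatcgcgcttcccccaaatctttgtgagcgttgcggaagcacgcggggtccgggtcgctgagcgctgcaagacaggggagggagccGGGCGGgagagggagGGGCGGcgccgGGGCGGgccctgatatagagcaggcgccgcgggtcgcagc
SERPINB2: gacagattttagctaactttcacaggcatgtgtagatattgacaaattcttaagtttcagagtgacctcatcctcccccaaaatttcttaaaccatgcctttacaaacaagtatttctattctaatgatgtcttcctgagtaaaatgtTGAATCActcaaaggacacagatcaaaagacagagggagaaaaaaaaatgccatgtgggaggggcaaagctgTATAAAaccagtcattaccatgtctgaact
SERPINB8: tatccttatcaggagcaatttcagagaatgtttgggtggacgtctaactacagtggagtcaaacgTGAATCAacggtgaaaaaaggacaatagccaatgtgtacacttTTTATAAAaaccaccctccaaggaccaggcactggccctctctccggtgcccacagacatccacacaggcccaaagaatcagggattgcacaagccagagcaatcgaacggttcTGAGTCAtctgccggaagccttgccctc
F3: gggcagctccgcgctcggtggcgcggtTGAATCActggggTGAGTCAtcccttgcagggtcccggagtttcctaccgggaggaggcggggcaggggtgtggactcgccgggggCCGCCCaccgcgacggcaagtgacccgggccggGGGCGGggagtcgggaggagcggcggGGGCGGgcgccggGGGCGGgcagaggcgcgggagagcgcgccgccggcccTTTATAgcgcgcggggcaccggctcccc
This window of PLAU held 3 GC boxes, starting at -66, -51 and -40 from the start of transcription, and no AP-1 site or TATA box. SERPINB2 held an AP-1 site at -102 and a TATA box at -30. SERPINB8 held AP-1 sites at -185 and -28 and a pair of overlapping TATA boxes at -142 and -140 on opposite strands. F3 held AP-1 sites at -223 and -210, 4 GC boxes and a TATA box on the minus strand at -28. Among the windows not printed, PLAUR held an AP-1 site at -186, both windows of SERPINE2 held GC boxes and 1 of them an E-box at -87, and the other window of PLAU and that of TFPI held none of the 5 motifs. The matches describe the letters only, and no binding was measured here.

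PLAU, the gene of urokinase, stood above NS shRNA with shRNA #1 and below it with shRNA #2. It lies at chr10:73909177-73917496 on hg38, with 11 exons in its canonical transcript. The NS shRNA libraries held 621, 626 and 604 CPM, the shRNA #1 libraries 1526, 1560 and 1583 CPM, and the shRNA #2 libraries 191, 182 and 198 CPM. No group overlapped another, and each was tight around its mean. Its log2 fold change against NS shRNA was 1.33 (standard error 0.039, 95% interval 1.24 to 1.42, adjusted p = 1.16e-08 from limma) with shRNA #1, a 2.51-fold higher level. It was -1.70 (standard error 0.051, interval -1.81 to -1.58, adjusted p = 5.07e-09 from limma) with shRNA #2, a 3.24-fold lower level. The hairpins differed from each other by -3.03 on the log2 scale (shRNA #2 against shRNA #1, standard error 0.043, adjusted p = 1.67e-12 from edgeR), so PLAU was 8.20-fold lower with shRNA #2.

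PLAT, the gene of tissue plasminogen activator, moved the other way with each hairpin. It lies at chr8:42174718-42207709 on hg38, with 14 exons. It held 687, 674 and 712 CPM with NS shRNA, 530, 542 and 511 with shRNA #1, and 1837, 1917 and 1754 with shRNA #2. All 3 groups were apart. The log2 fold change was -0.39 (standard error 0.044, interval -0.49 to -0.29, adjusted p = 4.23e-05 from limma) with shRNA #1, a 1.31-fold fall. With shRNA #2 it was 1.41 (standard error 0.053, interval 1.29 to 1.52, adjusted p = 1.55e-08 from limma), a 2.65-fold rise. Between the hairpins PLAT differed by 1.79 on the log2 scale (standard error 0.044, adjusted p = 9.01e-11 from edgeR).

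PLAUR, which encodes the receptor that tethers urokinase to the membrane, was called with shRNA #2 and not with shRNA #1. The gene lies at chr19:43646095-43670547 on hg38, with 7 exons. It held 91.6, 97.4 and 81.3 CPM with NS shRNA, 83.3, 85 and 96.7 with shRNA #1, and 76.9, 68.3 and 81.1 with shRNA #2. The shRNA #1 libraries lay within the NS shRNA range, and the log2 fold change was -0.03 (interval -0.21 to 0.14, adjusted p = 0.734 from limma). The shRNA #2 libraries lay just below those of NS shRNA, at -0.26 (standard error 0.083, interval -0.44 to -0.08, adjusted p = 0.0175 from limma). That call was lost when limma was refitted without the first NS shRNA library (adjusted p = 0.0558), the second (0.0865) or the second shRNA #2 library (0.0604), and without limma's intensity trend (0.0575). The hairpins differed by -0.23 (standard error 0.085, adjusted p = 0.0308 from edgeR), a call lost without shRNA #1 replicate 3 (0.125), shRNA #2 replicate 1 (0.0609) or shRNA #2 replicate 2 (0.117).

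Ratios within a library, taken on length-scaled levels and chosen after the values had been seen, put these genes on a scale in which the library size cancels. The ratio of PLAU to PLAT was 2.38, 2.45 and 2.23 with NS shRNA, 7.59, 7.58 and 8.16 with shRNA #1, and 0.275, 0.251 and 0.298 with shRNA #2. On this scale PLAU was the more abundant activator transcript with NS shRNA and shRNA #1, and PLAT with shRNA #2. With NS shRNA that order rests on the merged exon lengths, 2949 bases for PLAU and 7770 for PLAT. In mean CPM, PLAT stood above PLAU there, at 691 against 617. The mean ratio with shRNA #1 was 3.30 times that with NS shRNA, and with shRNA #2 it was 8.58 times below. The ratio of PLAU to PLAUR was 10.4 ± 0.771 (SD, n = 3) with NS shRNA, 26.7 ± 1.7 with shRNA #1 and 3.83 ± 0.181 with shRNA #2. Each of these differences from NS shRNA had an exact two-sided permutation p of 0.1, the smallest that 3 libraries against 3 allow.

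**Figure D3:**
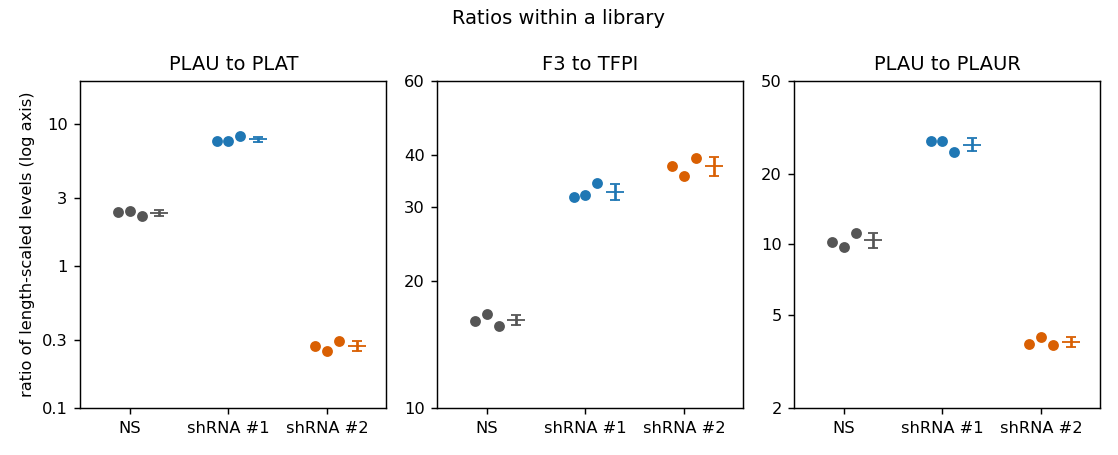
Ratios of length-scaled levels within each library (y axes, log scale), as points, with the mean and SD of 3 libraries per group beside them (NS shRNA grey, ASAH1 shRNA #1 blue, ASAH1 shRNA #2 orange). PLAU to PLAT rose above NS shRNA with shRNA #1 and fell below 1 with shRNA #2, PLAU to PLAUR had the same order, and F3 to TFPI was higher with both hairpins.

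The serpins of this group inhibit serine proteases outside or inside the cell. SERPINE2 encodes protease nexin 1, an inhibitor of thrombin and the plasminogen activators, at chr2:223975045-224039318 on hg38 with 9 exons. It held 21.2, 21.5 and 18.7 CPM with NS shRNA, 34.1, 34 and 37.5 with shRNA #1, and 42.6, 45.1 and 41.8 with shRNA #2. Every library with an ASAH1 shRNA was above every NS shRNA library. The log2 fold change was 0.78 (standard error 0.073, interval 0.61 to 0.94, adjusted p = 1.22e-05 from limma) with shRNA #1 and 1.07 (standard error 0.075, interval 0.91 to 1.24, adjusted p = 7.27e-07) with shRNA #2, which are 1.71-fold and 2.10-fold higher levels. SERPINE2 was higher with shRNA #2 than with shRNA #1 by 0.29 on the log2 scale (standard error 0.068, adjusted p = 0.00311 from edgeR).

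SERPINB2 encodes plasminogen activator inhibitor 2, an inhibitor of urokinase that stays largely inside the cell. It lies at chr18:63871692-63903888 on hg38, with 8 exons. It was at the edge of detection, with 0, 0 and 1 read in the NS shRNA libraries, 30, 54 and 36 reads with shRNA #1, and 3, 7 and 4 reads with shRNA #2. The shRNA #1 libraries stood clear of the others, and all shRNA #2 libraries were above those of NS shRNA. Summed over libraries and scaled by the size factors, the ratio to NS shRNA was 121 (exact 95% interval 21.3 to 4817) with shRNA #1 and 12.2 (interval 1.86 to 516) with shRNA #2, and these intervals cover counting error only. The comparison with shRNA #1 passed the test (adjusted p = 8.24e-06 from limma), with a fitted log2 fold change of 5.01 that rests on the pseudocount. With shRNA #2 the gene was below the minimum mean of 10 and was not tested. It passed that minimum with shRNA #1 only through the libraries in which it was high. Between the hairpins it was lower with shRNA #2 by a log2 ratio of -3.27 (standard error 0.35, interval -4.04 to -2.50, adjusted p = 8.93e-06 from edgeR). For that test too, it passed the expression filter only through the shRNA #1 libraries.

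SERPINB8 encodes an intracellular serpin of the same chromosome 18 cluster, at chr18:63970029-64019779 on hg38 with 7 exons. Its levels were 17.4, 17.3 and 19.6 CPM with NS shRNA, 27.9, 29.9 and 27.4 with shRNA #1, and 18, 18.6 and 16.8 with shRNA #2. Only the shRNA #1 libraries stood apart, and the groups with NS shRNA and shRNA #2 overlapped. The log2 fold change was 0.65 (standard error 0.073, interval 0.48 to 0.81, adjusted p = 4.29e-05 from limma) with shRNA #1, a 1.56-fold rise, and -0.03 (interval -0.21 to 0.15, adjusted p = 0.778) with shRNA #2. The hairpins themselves differed by -0.68 (standard error 0.069, adjusted p = 5.44e-06 from edgeR).

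F3, the tissue factor gene at chr1:94529173-94541759 on hg38 with 6 exons, was already abundant with NS shRNA, at 607, 636 and 634 CPM. It held 731, 727 and 721 CPM with shRNA #1 and 985, 1022 and 1023 CPM with shRNA #2. The groups did not overlap, and the shRNA #2 libraries were the highest. The log2 fold change was 0.21 (standard error 0.041, interval 0.12 to 0.30, adjusted p = 0.00131 from limma) with shRNA #1, a 1.16-fold rise, and 0.69 (standard error 0.048, interval 0.58 to 0.79, adjusted p = 7.42e-07) with shRNA #2, a 1.61-fold rise. The hairpins differed by 0.47 (standard error 0.036, adjusted p = 6.4e-07 from edgeR).

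TFPI encodes tissue factor pathway inhibitor, which blocks the complex of tissue factor with factor VII and factor X. The gene lies at chr2:187464230-187565760 on hg38, with 8 exons. It held 153, 155 and 164 CPM with NS shRNA, 93.6, 92 and 85.1 with shRNA #1, and 106, 117 and 105 with shRNA #2. Both ASAH1 shRNA groups were below all NS shRNA libraries. The log2 fold change was -0.80 (standard error 0.055, interval -0.93 to -0.68, adjusted p = 1.71e-06 from limma) with shRNA #1 and -0.53 (standard error 0.06, interval -0.66 to -0.39, adjusted p = 2.23e-05) with shRNA #2, which are 1.75-fold and 1.44-fold lower levels. The shRNA #2 level exceeded that of shRNA #1 by 0.27 (standard error 0.059, adjusted p = 0.00177 from edgeR).

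THBD, a gene of 1 exon at chr20:23045633-23049672 on hg38, encodes thrombomodulin, the membrane cofactor that turns thrombin toward protein C. It held 153, 162 and 161 CPM with NS shRNA, 98.4, 97.6 and 93.7 with shRNA #1, and 117, 109 and 111 with shRNA #2. As for TFPI, the NS shRNA libraries were the highest and the shRNA #1 libraries the lowest, with no overlap. The log2 fold change was -0.72 (standard error 0.048, interval -0.83 to -0.61, adjusted p = 1.35e-06 from limma) with shRNA #1 and -0.50 (standard error 0.055, interval -0.62 to -0.38, adjusted p = 1.78e-05) with shRNA #2, which are 1.65-fold and 1.42-fold lower levels. Between the hairpins it differed by 0.21 (standard error 0.049, adjusted p = 0.00257 from edgeR). THBD and TFPI are both also made by endothelial cells, whose 5 markers were detected at low levels and summed to between 3.2 and 3.24 CPM with NS shRNA, between 1.91 and 2.89 with shRNA #1 and between 1.68 and 2.44 with shRNA #2. Their part in these values was not tested.

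F3 was also set against TFPI, the inhibitor of the complex it starts. The length-scaled ratio of F3 to TFPI was 16.1, 16.7 and 15.7 with NS shRNA, 31.7, 32.1 and 34.4 with shRNA #1, and 37.6, 35.6 and 39.4 with shRNA #2. It was 2.02 times the NS shRNA mean with shRNA #1 and 2.32 times with shRNA #2, each with an exact two-sided permutation p of 0.1.

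Set directly against each other by edgeR, all 9 members differed between the hairpins: 5 were higher and 4 lower with shRNA #2, beside 31.1% of 14714 genes called higher and 32.1% called lower. Of the 4, SERPINB2 passed edgeR's expression filter only through the shRNA #1 libraries, in which it was high. Its place in that count is therefore not independent of the filter. Under upper quartile normalization 3744 genes were higher and 5607 lower, where 4581 and 4730 had been called, and the members kept their directions. ASAH1 itself was lower with shRNA #2 by -0.88 on the log2 scale (adjusted p = 6.82e-08 from edgeR). F3, SERPINE2, TFPI and THBD stood on the same side of NS shRNA with both hairpins and differed in size, whereas PLAU and PLAT stood on opposite sides. The shares of all genes with these patterns were not counted.

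The other genes of these pathways were counted in the same fits, in which 32.8% of all genes tested were higher and 33.3% lower with shRNA #1 (median log2 fold change 0.001), and 33.5% were higher and 33.4% lower with shRNA #2 (median 0.013). Of 17 further plasminogen genes, 12 were tested with shRNA #1, of which 3 were higher and 7 lower (median log2 fold change -0.42), and 13 with shRNA #2, of which 4 were higher and 6 lower (median -0.24). Of 20 further coagulation genes, 10 were tested in each comparison, with 2 higher and 4 lower with shRNA #1 (median -0.08) and 2 higher and 6 lower with shRNA #2 (median -0.40). Of 34 other serpin genes, 12 were tested in each, with 2 higher and 6 lower with shRNA #1 (median -0.14) and 3 higher and 6 lower with shRNA #2 (median -0.36). Most of the remaining serpins had few or no reads, and 6 had none in any library. The serpin list shares 4 genes with the plasminogen list and 2 with the coagulation list. The genes counted as lower in both comparisons include SERPINA5 (plasminogen and serpin lists) and VTN (plasminogen list). These passed the minimum mean only through the NS shRNA libraries, in which they were high. KLKB1 was counted as higher in the plasminogen list with shRNA #2 (log2 fold change 1.72). It was tested in that comparison only, since it did not reach the minimum mean in the comparison with shRNA #1. Its call is therefore not independent of the filter.

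Among the plasminogen genes, F12, the gene of coagulation factor XII, rose from 2.95 CPM with NS shRNA to 6.25 with shRNA #1 and 4.96 with shRNA #2, by 1.08 (adjusted p = 5.94e-05 from limma) and 0.75 (0.000556) on the log2 scale. Of the 4 that were lower with both, MRC2, an endocytic receptor for collagen that binds the urokinase receptor complex, fell from 102 CPM to 60.3 and 48 (log2 fold changes -0.76 and -1.09, adjusted p = 3.35e-06 and 1.51e-07 from limma). SERPINA5, the protein C inhibitor, held 104, 66 and 101 reads with NS shRNA, 1, 4 and 12 with shRNA #1 and 6, 8 and 11 with shRNA #2. VTN, the gene of vitronectin, which binds the urokinase receptor, held 23, 18 and 20 reads, then 3, 2 and 2 with shRNA #1 and 2, 2 and 14 with shRNA #2. SERPINA5 had fitted log2 fold changes of -4.14 with shRNA #1 and -3.47 with shRNA #2, the former -3.60 without shRNA #1 replicate 1 and -4.81 without its replicate 3. Those of VTN were -2.63 and -2.23, the latter -2.88 without shRNA #2 replicate 3. Both genes reached the minimum mean of 10 only through the NS shRNA libraries, in which they were high, so they had to differ. Their fitted changes depend on the pseudocount, least so for SERPINA5 with shRNA #2, where every library held 6 reads or more. PLGRKT, a plasminogen receptor (0.26 and -0.71), and ENO1, a glycolytic enzyme that also binds plasminogen at the cell surface (-0.54 and 0.42), were called in opposite directions with shRNA #1 and shRNA #2, and were named after their values had been seen.

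Among the coagulation genes, F2RL1, a protease-activated receptor, was the 1 gene higher with both hairpins, at 157 CPM with NS shRNA, 209 with shRNA #1 and 206 with shRNA #2 (log2 fold changes 0.40 and 0.39, adjusted p = 9.28e-05 and 0.000135 from limma). PROS1, the gene of protein S, a cofactor of activated protein C and of TFPI, fell from 51.2 CPM to 23.1 and 16.4 (-1.15 and -1.64, adjusted p = 4.86e-07 and 7.85e-08 from limma). TFPI2, a relative of TFPI that inhibits plasmin among other proteases, fell from 502 CPM to 258 and 372 (-0.97 and -0.44, adjusted p = 6.74e-08 and 1.85e-05 from limma). VKORC1, the vitamin K epoxide reductase on which clotting factor carboxylation depends, fell from 65.8 CPM to 46.7 and 44.2 (-0.50 and -0.58, adjusted p = 0.000891 and 0.000433 from limma).

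Of the serpins outside the plasminogen list, SERPINA1, the gene of alpha-1 antitrypsin, fell from 232 CPM with NS shRNA to 171 with shRNA #1 and 126 with shRNA #2 (log2 fold changes -0.44 and -0.88, adjusted p = 2.48e-05 and 1.91e-07 from limma). SERPINA3, the gene of alpha-1 antichymotrypsin, fell from 5.6 CPM to 1.52 and 2.91 (-1.87 and -0.94, adjusted p = 3.62e-06 and 6.85e-05 from limma). SERPINB7, a neighbour of SERPINB2 in the serpin cluster, was higher with shRNA #1 (1.17) and lower with shRNA #2 (-0.66), and was named after its values had been seen.

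**Figure D4:**
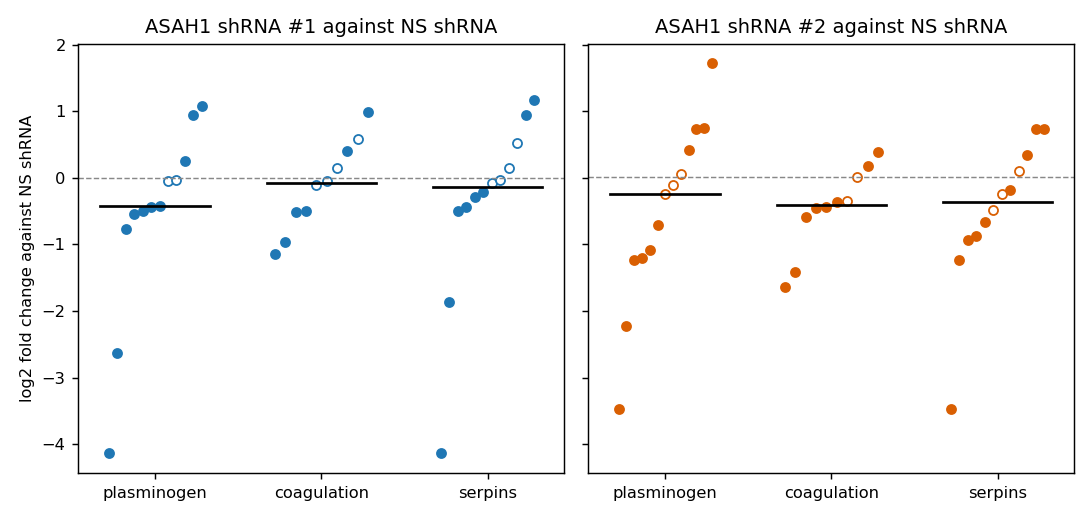
Log2 fold change against NS shRNA (y axis) of each tested gene of the plasminogen, coagulation and serpin lists, members left out, for ASAH1 shRNA #1 (left) and ASAH1 shRNA #2 (right). Filled points had an adjusted p below 0.05, black lines mark the median of each list (-0.42, -0.08 and -0.14 on the left, -0.24, -0.40 and -0.36 on the right), and the dashed line marks the median of all genes tested.

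Genes whose levels over the 9 libraries were among those most like those of each member, by Pearson's r of log2 CPM among 11631 genes, are given as a description, since the libraries form 3 groups. They were SFR1 for PLAU (0.998), TRIM29 and PPME1 for PLAT (both 0.999), FBXL6 (0.969) and PGLS (0.963) for PLAUR, and DNAJC8 (0.996) and UAP1 (0.994) for SERPINE2. For SERPINB2 they were COG1 (0.998) and C9orf84 (0.996), and for SERPINB8 STX7 (0.993) and PPP4R4 (0.992). SLC1A4 and FBXO45 (both 0.997) were most like F3, PLEKHA2 (0.998) and PODXL (0.997) most like TFPI, and GALNT2 and LPIN3 (both 0.997) most like THBD. Likeness was highest for the members with well-separated groups and lowest for PLAUR, whose groups were closest together.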

How the data were processed

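The 9 libraries of MDA-MB-231 RNA gave single-end reads. The series' design text names ribosomal RNA depletion and the extraction protocol oligo-dT selection; the library kit marked strand. Per the submitters' processing notes and the methods, the authors used Trimmomatic 0.36 for trimming, STAR 2.7.1a for alignment to hg38, HTSeq for counting on UCSC genes and DESeq2 1.28 for normalization. Elsewhere the methods also name Bowtie2 with UCSC transcripts, RSEM, TMM normalization and edgeR for this RNA. The deposited tables, 1 per ASAH1 shRNA with the NS shRNA libraries, hold for 26485 genes a normalized signal, that is, the reads of a gene over the size factor of the library. They also hold the authors' mean, log2 fold change, standard error, test statistic, p-value and adjusted p-value, none of which was used. 0 per-sample columns were left without a library. 28 gene symbols turned into dates in 1 table were taken from the other.

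All 26485 values of each library were whole reads (tolerance 0.01) after division by 1 factor, so reads were recovered, with the NS shRNA reads equal in both tables. For NS shRNA replicate 3 they were taken from the shRNA #1 table. Replicates differed by more than sampling noise (chi-square per gene 5.03 to 21.9). Within its own table, each ASAH1 shRNA was set against NS shRNA by limma 3.58.1 with an intensity trend, two-sided, on log2(value + 1), in genes whose mean reached 10, with Benjamini-Hochberg adjustment over all genes tested at 0.05. A fold change on this scale understates the change of low genes. The test between hairpins was the quasi-likelihood test of edgeR 4.0.16, with TMM scaling, fitted to the reads of the 9 libraries. It covered the genes kept by edgeR's own expression filter. R 4.3.3, DESeq2 1.42.0, Python 3.11.15, pandas 2.3.3, scipy 1.17.1 and matplotlib 3.10.9 were also used, and the fits were tested on simulated data. Gene spans, exons and lengths come from GENCODE v44 on hg38; the authors' UCSC annotation was not used here. The depth of 23806003 to 49659106 reads limits only genes with few reads.

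Members and lists were chosen with earlier results of these data known. The genes named are the members, ASAH1, up to 3 genes per list and direction with the largest mean change among those called the same way in both comparisons, and the 2 genes most like each member among those with a mean of at least 100 reads. Items that this rule also covers are not reported here. Alternatives tried were leaving out each library, a block for the replicate number, edgeR and DESeq2 on the reads, pseudocounts of 0.1 and 5, a minimum mean of 50 or none, dropping the trend in limma, upper quartile rescaling, a single limma fit over the 9 libraries and, chosen after seeing the data, scaling to the library total.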

Additional observations from a re-analysis of the deposited data

Results flagged for a closer look

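All 9 members differed between the ASAH1 hairpins in the quasi-likelihood test of edgeR, with 3 libraries per hairpin, beside 31.1% of all genes tested called higher and 32.1% called lower. SERPINB2 passed the filter of that test only through the shRNA #1 libraries, in which it was high. On the log2 scale, shRNA #2 against shRNA #1, PLAU stood at -3.03, PLAT at 1.79, SERPINB2 at -3.27, SERPINB8 at -0.68, F3 at 0.47, SERPINE2 at 0.29, TFPI at 0.27, THBD at 0.21 and PLAUR at -0.23, and the adjusted p-values ran from 1.67e-12 for PLAU to 0.0308 for PLAUR. ASAH1 differed as well, by -0.88. Groups of 3 libraries are too small to call a single library an outlier, and refits without each library are given below.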

How the results depend on the processing

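The 26 tested member comparisons were refitted 405 times, and 393 of these fits kept the direction and the side of the threshold. The exceptions concern PLAUR and SERPINB8. The uncalled change of PLAUR with shRNA #1 turned to 0.023 without NS shRNA replicate 2 and 0.0045 without shRNA #1 replicate 1 (range -0.10 to 0.023 with 1 library left out), and that of SERPINB8 with shRNA #2 to 0.032 without NS shRNA replicate 3 and 0.014 without shRNA #2 replicate 3 (range -0.06 to 0.032). The called change of PLAUR with shRNA #2, -0.33 to -0.19 with 1 library left out, was lost without NS shRNA replicate 1, NS shRNA replicate 2 or shRNA #2 replicate 2, and without the trend (adjusted p = 0.0575 from limma); its difference between hairpins ranged from -0.29 to -0.16. SERPINB2 with shRNA #2, untested in the report, had 2.03 (adjusted p = 0.00428 from limma) with all genes above 0 and 3.52 (0.0575 from DESeq2). With shRNA #1 its fitted change ran from 3.06 with a pseudocount of 5 to 7.50 with 0.1. Members lower with shRNA #2 numbered 3 to 4 with 1 library left out, against NS shRNA and against shRNA #1, and the other member counts did not move. The 25 comparisons of ASAH1 and the list genes under the naming rule kept direction and call in the 416 refits in which the gene passed the filter. VTN with shRNA #1 passed it in 4 of 6 fits with 1 library left out, and at a minimum mean of 50 VTN was not tested with either hairpin and SERPINA5 not with shRNA #1.

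With 1 library left out, genes higher numbered 4100 to 4737 and lower 4291 to 4754 with shRNA #1, 4270 to 4714 and 4276 to 4617 with shRNA #2, and 4070 to 4708 and 4281 to 4838 between the hairpins. Serpin list genes higher with shRNA #1 numbered 2 to 4, with 4 without shRNA #1 replicate 3, and coagulation list genes higher with shRNA #2 numbered 1 to 2, with 1 without NS shRNA replicate 1 or shRNA #2 replicate 1. Plasminogen list genes numbered 2 to 3 higher and 5 to 7 lower with shRNA #1, and 3 to 4 higher and 6 to 7 lower with shRNA #2. Coagulation list genes higher with shRNA #1 numbered 2 to 3. Serpin list genes lower numbered 5 to 6 with each ASAH1 shRNA. Unscaled library totals gave length-scaled NS shRNA levels of 215 for PLAU, 91.5 for PLAT and 223 for F3. The cause of these shifts was not tested.

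Replicate numbers did not pair the libraries across all groups: in 9 same-numbered pairs the correlation of deviations from the group means ran from -0.654 to 0.523, and 2 exceeded 0.1. Same-numbered pairs of the ASAH1 shRNAs had 0.0404, 0.222 and 0.523, and those with NS shRNA were all negative. Differently numbered pairs ran from -0.443 to 0.575. With the replicate number as a block, the PLAUR difference between hairpins was -0.23 (adjusted p = 0.0578 from edgeR) and no longer called, and no other member call changed. Coagulation list genes higher with shRNA #2 then numbered 1. Plasminogen list genes with shRNA #1 numbered 2 higher and 6 lower, and serpin list genes lower numbered 5 with each ASAH1 shRNA.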
